A study of Mus musculus with 27 samples.

Results

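Cardiac fibroblasts of mice aged 1.5 years were compared with those of mice aged 1 year, gene by gene, for all genes off chromosomes X and Y. The comparison rests on 4 RNA-seq libraries, 2 of each age, which carry the replicate numbers 4 and 5 at both ages. They belong to a series of 27 libraries over 5 ages, the youngest newborn, of which 12 came from fibroblasts and 15 from whole hearts. Of the 22855 genes in the fibroblast count table, 21209 lay off chromosomes X and Y, 859 lay on them and 787 had no position in the annotation. Of the 21209, 17714 passed the filter on low counts and were tested. The comparison asks whether gene expression of fibroblasts still moves late in adult life. Per the study's methods the mice were C57BL/6, no transgene or drug was named for these libraries, and the cells were sorted by flow cytometry for PDGFRα from ventricles freed of atria and valves. PDGFRα is a growth factor receptor on the surface of cardiac fibroblasts. The sets of cells came from different hearts per the same methods, which name more sets per age than the 2 libraries found here. The labels give no link between fibroblast libraries.

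Fibroblasts make most of the extracellular matrix of the heart. Procollagen chains are hydroxylated and folded in the endoplasmic reticulum, trimmed outside the cell and cross-linked by lysyl oxidases into fibrils. Type I and type III collagen form the fibres between heart muscle cells, type IV collagen and nidogens form the sheets that underlie cells, and matricellular proteins such as tenascin C and SPARC bind the fibres and modify how cells hold them.

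The 4 libraries held between 66080160 and 76758831 counts. All 15 genes of a fibroblast identity list, which includes Col1a1, Col1a2 and Col3a1, were tested. Of these, 11 had a negative log2 fold change at 1.5 years and 4 a positive one (median -0.11). In 8 both libraries of 1.5 years lay below both of 1 year (21.3% of all tested genes), and in 1 above (19.9%). Pdgfra itself lay at 1264 and 1229 CPM at 1 year and 1139 and 1164 CPM at 1.5 years (CPM, counts per library scaled to a common total). It lay at 34.9, 32.4 and 30 CPM in whole hearts of 1 year. RNA of chromosomes X and Y separated the ages completely: Xist lay at 0.315 and 0.194 CPM at 1 year and 429 and 424 CPM at 1.5 years, and Ddx3y of chromosome Y at 74.1 and 71.7 against 0.0813 and 0.0468 CPM. Whole hearts were split by the same genes at the same ages, with Xist between 0.281 and 0.57 CPM at 1 year and between 34.8 and 129 CPM at 1.5 years. The labels give no sex. By these genes the 1-year libraries read as male and the 1.5-year libraries as female. Age and sex therefore cannot be told apart in any result given here, also for genes off X and Y. Fibroblasts of 14 weeks had the pattern of 1 year, with Xist at 0.0173 and 0.0701 CPM.

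The pair of 1.5-year libraries differed from each other more than the pair of 1 year did. Of the tested genes, 838 lay over 2-fold apart between the libraries of 1.5 years and 151 between those of 1 year, on a log2(CPM + 2) scale. RNA of the mitochondrial genome took 2.2% of counts in replicate 4 and 7.83% in replicate 5 at 1.5 years, against 1.74% and 1.78% at 1 year. The summed level of 17 endothelial markers was 1024 CPM in replicate 4 and 3444 CPM in replicate 5, with 1471 and 1852 CPM at 1 year between them. Much of the sum at 1 year was Eng (626 and 627 CPM) and Tek (223 and 194 CPM), which are taken up again below. Pecam1, which encodes the endothelial antigen CD31, lay at 57.2 and 87.2 CPM at 1 year and 37.4 and 234 CPM at 1.5 years. Replicate 4 was thus the lowest and replicate 5 the highest of the 4 in endothelial RNA, and the ages overlapped for each of the 17 markers. None of the 17 was at 0 in any of the 4 libraries.

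**Figure D1:**
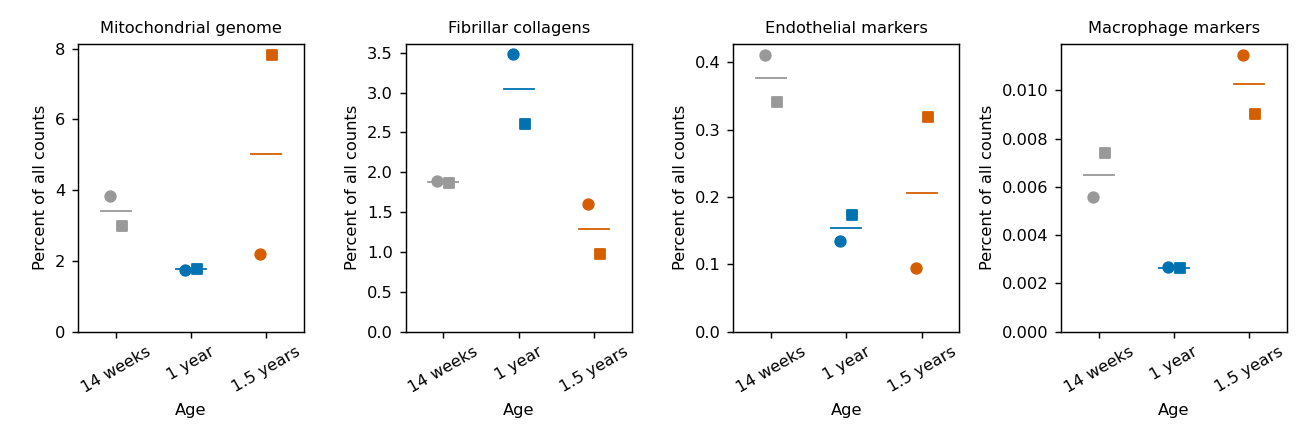
Percent of all counts taken by 4 groups of genes in fibroblast libraries (vertical axes, percent, each panel from 0) by age (horizontal axes). Each point is a library (circle, the first replicate number; square, the second) and each line the mean of 2. At 1.5 years the mitochondrial share was 2.2% and 7.83%, while fibrillar collagens lay below both libraries of 1 year.

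Genes that carry the main groups of results are introduced here with the bases just before their start site, from RefSeq (GRCm38.p6), so that the letters can be read beside the levels that follow. Each run holds the 150 bases upstream of the start, 5′ to 3′ on the gene's strand, with 1 searched motif in capitals. The starts are those of RefSeq, and the run of Col1a2 lies inside the gene bounds given further on from another annotation. Of the 2 windows of Irf8, a window with the motif is shown. Col1a2 and Col3a1 encode chains of type I and type III collagen and were lower at 1.5 years, Irf8 encodes a transcription factor of myeloid cells and was higher, and Ppp1r15a and Topors were the higher genes that held TGACGTCA, the letters bound by CREB and ATF factors.
Col1a2, chr6:4505468-4505617, + strand, CCAAT in capitals: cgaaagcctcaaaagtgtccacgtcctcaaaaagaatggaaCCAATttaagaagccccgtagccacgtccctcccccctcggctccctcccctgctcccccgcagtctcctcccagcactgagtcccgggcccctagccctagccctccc
Col3a1, chr1:45311388-45311537, + strand, TATAAA in capitals: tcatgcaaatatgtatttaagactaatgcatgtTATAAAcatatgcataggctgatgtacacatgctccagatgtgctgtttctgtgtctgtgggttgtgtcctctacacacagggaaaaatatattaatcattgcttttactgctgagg
Irf8, chr8:120736208-120736357, + strand, TATAAA in capitals: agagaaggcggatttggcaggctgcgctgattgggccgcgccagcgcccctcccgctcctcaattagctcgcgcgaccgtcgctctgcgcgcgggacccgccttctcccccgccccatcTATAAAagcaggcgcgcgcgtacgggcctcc
Ppp1r15a, chr7:45526269-45526418, - strand, TGACGTCA in capitals: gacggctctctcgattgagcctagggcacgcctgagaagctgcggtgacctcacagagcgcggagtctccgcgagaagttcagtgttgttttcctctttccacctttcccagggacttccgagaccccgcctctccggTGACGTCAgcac
Topors, chr4:40269842-40269991, - strand, TGACGTCA in capitals: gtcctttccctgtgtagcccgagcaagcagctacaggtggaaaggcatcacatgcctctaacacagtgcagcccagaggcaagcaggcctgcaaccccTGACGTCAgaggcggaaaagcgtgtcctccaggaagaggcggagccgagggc

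Promoter windows of 300 bases, from 250 before to 50 after the start, were found for 28 of the 38 genes called below, 14 higher and 14 lower. Among those without a window, and so not searched, were Hsp90aa1, Hspa8, Prg4, C4b, Col5a2 and Ier2. The letters of 5 strings were searched on both strands. TGACGTCA stood in 2 of the 14 higher and 0 of the 14 lower genes, against 2.03% of the 27025 genes with a window. TATAAA stood in 2 higher and 4 lower genes (15.7% of all), CCAAT in 7 and 8 (41.1%), GGGCGG in 8 and 8 (38.2%) and GAANNTTC in 0 and 0 (9.04%). None of the 5 strings contains another, and a match describes letters only.

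Across the tested genes, 16 were higher at 1.5 years than at 1 year (0.0903% of 17714) and 22 were lower (0.124%), at an adjusted p under 0.05 in edgeR's quasi-likelihood test over all 12 fibroblast libraries. All 38 were protein-coding, and in all 38 the libraries of the ages did not overlap, which held for 19.9% of all tested genes in the higher and 21.3% in the lower direction. At an unadjusted p under 0.05 there were 593 higher (3.35%) and 578 lower genes (3.26%). The median log2 fold change of all tested genes was 0.00. The counts rested on single libraries: without replicate 5 of 1.5 years 1 gene was higher and 0 lower, without replicate 4 of 1.5 years 26 and 40, without replicate 4 of 1 year 2 and 2, and without replicate 5 of 1 year 6 and 17. Each of the 38 kept its direction in every one of those fits, an outcome that the lack of overlap between the ages fixed beforehand. DESeq2 called 180 higher and 153 lower genes, among them all 38.

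Structural genes of the matrix were among the lower genes. Of all tested genes 0.124% were called lower and 0.0903% higher, the shares to set beside the counts of called genes in each list below. Of 10 fibrillar collagens tested, 3 fell (Col5a2, Col3a1 and Col1a2), 0 rose, and the list's median log2 fold change was -1.03 (-0.46 without replicate 4 of 1 year). Their summed share of counts was 3.48% and 2.6% at 1 year (mean 3.04% ± 0.622, SD, n = 2) and 1.6% and 0.973% at 1.5 years (mean 1.29% ± 0.447, SD, n = 2). The shares did not overlap, and the two-sided exact permutation p was 0.333, the smallest that 2 against 2 can give. In libraries of sorted cells, fewer cells that make collagen and less collagen RNA per cell cannot be told apart.

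Col3a1 (chr1:45311538-45349706, GRCm38), the chain of type III collagen, was measured at 15334 and 10292 CPM at 1 year and 5628 and 2893 CPM at 1.5 years. It was 3.01-fold lower at 1.5 years (log2 fold change -1.59, SE 0.28, adjusted p = 0.0403), and both libraries of 1.5 years lay below both of 1 year. Col1a2 (chr6:4504814-4541544), the second chain of type I collagen, was measured at 7424 and 5841 CPM at 1 year and 3617 and 2419 CPM at 1.5 years, 2.2-fold lower (log2 fold change -1.14, SE 0.21, adjusted p = 0.0498). Col5a2 (chr1:45374321-45503282), a chain of type V collagen, which nucleates fibrils, had 1500 and 1130 CPM at 1 year and 660.3 and 439.6 CPM at 1.5 years and was 2.39-fold lower (log2 fold change -1.26, SE 0.19, adjusted p = 0.0214). Col1a1, the partner chain of Col1a2, had 9305 and 6685 CPM at 1 year and 3887 and 2286 CPM at 1.5 years, without overlap, and did not pass the threshold (log2 fold change -1.37, SE 0.25, adjusted p = 0.0542). In each of the 4 genes replicate 5 of 1.5 years was the lowest library and replicate 4 of 1 year the highest. At 14 weeks the same genes lay at 6427 and 6177 CPM for Col3a1, 3994 and 4121 for Col1a2, 704 and 705 for Col5a2 and 4363 and 4520 for Col1a1, above the libraries of 1.5 years and below those of 1 year in all 4 genes.

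Of the 10 fibrillar chains, 4 had positive estimates, Col5a3, Col27a1, Col11a1 and Col11a2. Levels were 907 and 769 CPM at 1 year and 1248 and 967 CPM at 1.5 years for Col5a3, and 154 and 163 CPM at 1 year and 254 and 196 CPM at 1.5 years for Col27a1, with log2 fold changes of 0.40 (SE 0.17) and 0.51 (SE 0.27), neither past the threshold (adjusted p = 0.726 and 0.77). Col11a2, a chain of type XI collagen, had 1.68 and 2.45 CPM at 1 year and 5.64 and 5.41 CPM at 1.5 years, without overlap (log2 fold change 1.42, SE 0.84, adjusted p = 0.77). Its partner chain Col11a1 had 0.745 and 1.58 CPM at 1 year and 0.959 and 1.82 CPM at 1.5 years (log2 fold change 0.27, adjusted p = 0.998). These 4 and Col5a1 below were singled out after their values were seen. Col5a1, the partner chain of Col5a2, had 3639 and 2858 CPM at 1 year and 2092 and 1326 CPM at 1.5 years (log2 fold change -0.93, adjusted p = 0.134).

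Among 26 non-fibrillar collagens, 2 fell and 0 rose, with a list median of -0.44. Col4a2, a chain of basement membrane collagen, had 2966 and 2394 CPM at 1 year and 1303 and 1249 CPM at 1.5 years and was 2.1-fold lower (log2 fold change -1.07, SE 0.16, adjusted p = 0.0215). Col8a1, a chain of a short network-forming collagen, had 1088 and 735 CPM at 1 year and 442 and 328 CPM at 1.5 years, 2.37-fold lower (log2 fold change -1.24, SE 0.21, adjusted p = 0.0311). Of the 15 basement membrane genes that are not collagens, only Nid1, which links laminin to type IV collagen, passed the threshold. Its levels were 5516 and 4366 CPM at 1 year and 2903 and 2283 CPM at 1.5 years, a 1.91-fold difference (log2 fold change -0.93, SE 0.16, adjusted p = 0.0429), and the list's median was -0.13 (-0.48 without replicate 5 and -0.22 without replicate 4 of 1.5 years).

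The enzymes and chaperones that build collagen had mostly negative estimates and 1 call. Of 28 tested, 26 had a negative log2 fold change (median -0.45), 14 had an unadjusted p under 0.05 in the lower direction (3.26% of all tested genes), and in 19 the ages did not overlap in that direction (21.3% of all). Lox, the lysyl oxidase that cross-links collagen and elastin, was the 1 that passed the adjusted threshold, at 316 and 227 CPM at 1 year and 104 and 71.5 CPM at 1.5 years. It was 3.1-fold lower at 1.5 years (log2 fold change -1.63, SE 0.28, adjusted p = 0.038), and its 14-week levels were 98 and 109.9 CPM. The list includes genes that act on the same substrate, so its members are not independent of each other. Its median was -0.27 without replicate 5 of 1.5 years and -0.65 without replicate 4.

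Of 44 proteoglycans, matricellular proteins and elastic fibre genes, 2 fell and 0 rose (median -0.43, 35 negative, and -0.20 without replicate 4 of 1 year). Tnc, tenascin C, had 188 and 86.3 CPM at 1 year and 28.9 and 11.4 CPM at 1.5 years. It showed the largest fold among the lower genes, 6.8-fold (log2 fold change -2.76, SE 0.46, adjusted p = 0.0346), with over 2-fold between the libraries within each age, and its 14-week levels were 19.3 and 25.3 CPM. Sparc, a collagen-binding glycoprotein, had 4879 and 3578 CPM at 1 year and 2023 and 1325 CPM at 1.5 years, 2.53-fold lower (log2 fold change -1.34, SE 0.20, adjusted p = 0.0214). Postn, the matricellular protein periostin, went from 2376 and 1109 CPM to 832 and 427 CPM and missed the threshold (log2 fold change -1.47, adjusted p = 0.207).

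**Figure D2:**
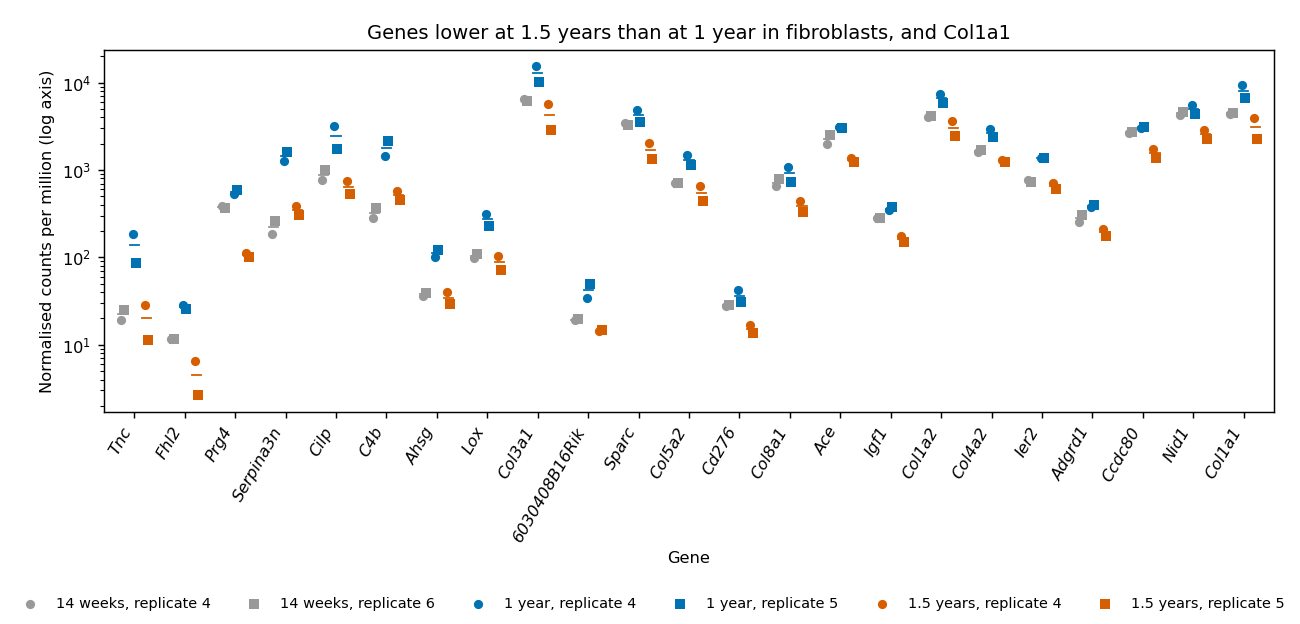
Normalised CPM (vertical axis, log scale) of the 22 genes lower at 1.5 years and of Col1a1, in single fibroblast libraries of 14 weeks (grey), 1 year (blue) and 1.5 years (orange), with short lines at the mean of 2. In the 22 genes and Col1a1, both orange points lie below both blue points, from a 1.91-fold (Nid1) to a 6.8-fold (Tnc) difference.

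Next come 6 lower genes that encode secreted proteins, a grouping made after their values were seen. Genes of other secreted proteins were higher and are given further on. Prg4, lubricin, a lubricating proteoglycan of joints and serosa, had 538 and 587 CPM at 1 year and 113 and 101 CPM at 1.5 years. It was 5.27-fold lower and had the smallest adjusted p off X and Y (log2 fold change -2.40, SE 0.27, adjusted p = 0.00351), with the replicates of each age close together. Cilp, a matrix protein that binds growth factors, had 3177 and 1744 CPM at 1 year and 753 and 527 CPM at 1.5 years, 3.84-fold lower (log2 fold change -1.94, SE 0.29, adjusted p = 0.0214). Igf1, insulin-like growth factor 1, had 348 and 372 CPM at 1 year and 178 and 149 CPM at 1.5 years, 2.21-fold lower (log2 fold change -1.14, SE 0.20, adjusted p = 0.0383).

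Serpina3n, an acute-phase protease inhibitor, had 1276 and 1589 CPM at 1 year and 389 and 309 CPM at 1.5 years, 4.1-fold lower (log2 fold change -2.04, SE 0.31, adjusted p = 0.0215). C4b, complement component 4, had 1458 and 2154 CPM at 1 year and 575 and 448 CPM at 1.5 years, 3.53-fold lower (log2 fold change -1.82, SE 0.29, adjusted p = 0.0305), the 1 call among 21 complement genes. C4b has a close paralog, so its counts depend on how shared reads were placed. Ahsg, a serum glycoprotein made mostly by liver, had 102 and 122 CPM at 1 year and 39.7 and 29.5 CPM at 1.5 years, 3.24-fold lower (log2 fold change -1.69, SE 0.30, adjusted p = 0.0429). At 14 weeks Serpina3n lay at 184 and 259.8 CPM, C4b at 283 and 369 and Ahsg at 36 and 39.5, nearer to the libraries of 1.5 years than to those of 1 year.

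Fhl2, a LIM-domain cofactor abundant in heart muscle, had 28.6 and 25.4 CPM at 1 year and 6.44 and 2.63 CPM at 1.5 years in fibroblasts, 5.95-fold lower (log2 fold change -2.57, SE 0.39, adjusted p = 0.0214). Ier2, an immediate early gene, had 1382 and 1364 CPM at 1 year and 709 and 609 CPM at 1.5 years, 2.08-fold lower (log2 fold change -1.06, SE 0.18, adjusted p = 0.0392), and 6030408B16Rik, a gene without a named function, had 34.6 and 49.1 CPM at 1 year and 14.3 and 14.7 CPM at 1.5 years (log2 fold change -1.53, SE 0.25, adjusted p = 0.0307). A further 4 genes completed the 22 and are named here after their values were seen. Ace, the angiotensin-converting enzyme, had 3108 and 3018 CPM at 1 year and 1366 and 1246 CPM at 1.5 years, 2.35-fold lower with nearly equal replicates (log2 fold change -1.23, SE 0.17, adjusted p = 0.0168). Ccdc80, a secreted matrix-associated protein, had 3051 and 3111 CPM at 1 year and 1730 and 1388 CPM at 1.5 years (log2 fold change -0.98, SE 0.15, adjusted p = 0.0251). Cd276, an immune checkpoint ligand, had 42.2 and 30.5 CPM at 1 year and 16.9 and 13.7 CPM at 1.5 years (log2 fold change -1.25, SE 0.20, adjusted p = 0.0307), and Adgrd1, an adhesion G protein-coupled receptor, had 378 and 401 CPM at 1 year and 209.9 and 176 CPM at 1.5 years (log2 fold change -1.01, SE 0.18, adjusted p = 0.0392).

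Chaperones were among the higher genes. Of 31 heat shock and unfolded protein response genes, 3 rose and 0 fell, with a median of 0.34. It was 0.17 without replicate 4 and 0.53 without replicate 5 of 1.5 years, and 0.22 without replicate 4 and 0.61 without replicate 5 of 1 year. In 14 of the 31 the 1.5-year libraries lay above without overlap (of all tested genes, 19.9%) and in 6 below (21.3%). Hsp90aa1, an inducible HSP90 chaperone, had 159 and 270.3 CPM at 1 year and 670 and 626 CPM at 1.5 years, 3.02-fold higher (log2 fold change 1.60, SE 0.23, adjusted p = 0.0202). Hspa8, the constitutive HSP70 chaperone, had 622 and 894 CPM at 1 year and 1753 and 1542 CPM at 1.5 years, 2.17-fold higher (log2 fold change 1.12, SE 0.16, adjusted p = 0.0202), and Dnajb9, a co-chaperone of the endoplasmic reticulum, had 44.6 and 41.6 CPM at 1 year and 99.2 and 95.3 CPM at 1.5 years, 2.26-fold higher (log2 fold change 1.17, SE 0.21, adjusted p = 0.0431). In the first pair replicate 5 of 1 year lay above replicate 4 of 1 year, and both 1.5-year libraries lay above both. Hspa8 has processed pseudogenes, so its counts depend on how shared reads were placed. Ppp1r15a, which directs the removal of phosphate from eIF2α after stress, had 295 and 330.2 CPM at 1 year and 882 and 888 CPM at 1.5 years, 2.83-fold higher with replicates nearly equal (log2 fold change 1.50, SE 0.25, adjusted p = 0.0368). Its promoter run is 1 of the 2 with TGACGTCA. At 14 weeks Hspa8 (1060 and 1102 CPM) and Dnajb9 (71.2 and 65 CPM) lay above both libraries of 1 year. Hsp90aa1 (206 and 298 CPM) and Ppp1r15a (364 and 289 CPM) overlapped them.

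Of 33 immediate early genes, 1 rose (Ppp1r15a) and 1 fell (Ier2), with a median of 0.18, and in 17 the 1.5-year libraries lay above without overlap (of all tested genes, 19.9%) and in 10 below (21.3%).

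A further 4 higher genes, grouped here after their values were seen, encode secreted proteins. Igfbp3, which binds insulin-like growth factors in the extracellular space, had 178 and 282 CPM at 1 year and 849 and 961 CPM at 1.5 years, 3.94-fold higher (log2 fold change 1.98, SE 0.32, adjusted p = 0.0309). With Igf1 lower, the 16 tested genes of the insulin-like growth factor axis held 1 rise and 1 fall, and the list's median was -0.02. Timp3, an inhibitor of matrix metalloproteinases bound to the matrix, had 628 and 830 CPM at 1 year and 1575 and 1859 CPM at 1.5 years, 2.36-fold higher (log2 fold change 1.24, SE 0.18, adjusted p = 0.0202), the 1 call among 32 tested metalloproteinases, inhibitors and ADAMTS proteases. Vegfa, the endothelial growth factor, had 81.6 and 80 CPM at 1 year and 161 and 159 CPM at 1.5 years, 1.98-fold higher with the replicates of each age within a few CPM (log2 fold change 0.98, SE 0.15, adjusted p = 0.0251). Sema3d, a secreted guidance protein, had 23.3 and 24.8 CPM at 1 year and 57.6 and 69.4 CPM at 1.5 years, 2.64-fold higher (log2 fold change 1.40, SE 0.25, adjusted p = 0.0431). At 14 weeks all 4 lay above both libraries of 1 year. Their levels then were 583 and 509 CPM for Igfbp3, 2178 and 1800 for Timp3, 94.7 and 90.3 for Vegfa and 51.7 and 50.5 for Sema3d. Timp3 at 14 weeks thus also reached the levels of 1.5 years.

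Another 5 higher genes, also grouped after their values were seen, encode nuclear proteins. Irf8, which directs the development of macrophages and dendritic cells, had 27 and 26.1 CPM at 1 year and 83.2 and 72.4 CPM at 1.5 years, 2.93-fold higher (log2 fold change 1.55, SE 0.20, adjusted p = 0.0125). Jmjd1c, a histone demethylase family member, had 92.4 and 98 CPM at 1 year and 252 and 292 CPM at 1.5 years (log2 fold change 1.51, SE 0.25, adjusted p = 0.0311), and Plagl1, an imprinted zinc finger gene, had 4.45 and 5.08 CPM at 1 year and 9.96 and 15.2 CPM at 1.5 years (log2 fold change 1.40, SE 0.21, adjusted p = 0.0214). Topors, a ubiquitin and SUMO ligase, had 36.3 and 35.6 CPM at 1 year and 81.3 and 86.3 CPM at 1.5 years, 2.33-fold higher (log2 fold change 1.22, SE 0.22, adjusted p = 0.0498), and Hnrnph1, a splicing factor, had 149 and 185 CPM at 1 year and 360 and 401 CPM at 1.5 years, 2.28-fold higher (log2 fold change 1.19, SE 0.21, adjusted p = 0.0471). Irf8 lay at 19.8 and 13.7 CPM at 14 weeks, below both libraries of 1 year, whereas Hnrnph1 lay at 284 and 325 CPM, above them. Also above them at 14 weeks were Jmjd1c (144 and 157 CPM), Plagl1 (8.52 and 9.9 CPM) and Topors (42.9 and 49.8 CPM).

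Tenm4, a transmembrane teneurin, had 0.558 and 0.742 CPM at 1 year and 10.4 and 10.7 CPM at 1.5 years, 16.3-fold higher and the largest fold among higher genes of at least 10 CPM (log2 fold change 4.02, SE 0.64, adjusted p = 0.0281). Of the higher genes, 2 lay under 10 CPM and are named after their values were seen. Thsd4, a thrombospondin-domain protein of microfibrils, had 2.68 and 1.53 CPM at 1 year and 6.5 and 8.98 CPM at 1.5 years (log2 fold change 1.87, SE 0.27, adjusted p = 0.0202). Cd163, a scavenger receptor of resident macrophages, had 0 and 1 counts at 1 year and 70 and 317 at 1.5 years, a ratio of 406 (adjusted p = 0.0369 in the fit) with an exact 95% counting interval from 72.4 to 16073, which covers counting error only. At 14 weeks Cd163 lay at 4.03 and 3.7 CPM, between the libraries of 1.5 years. Thsd4 then lay at 8.8 and 8.85 CPM, also between them, and Tenm4 at 3.45 and 5.47 CPM, between the ages.

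**Figure D3:**
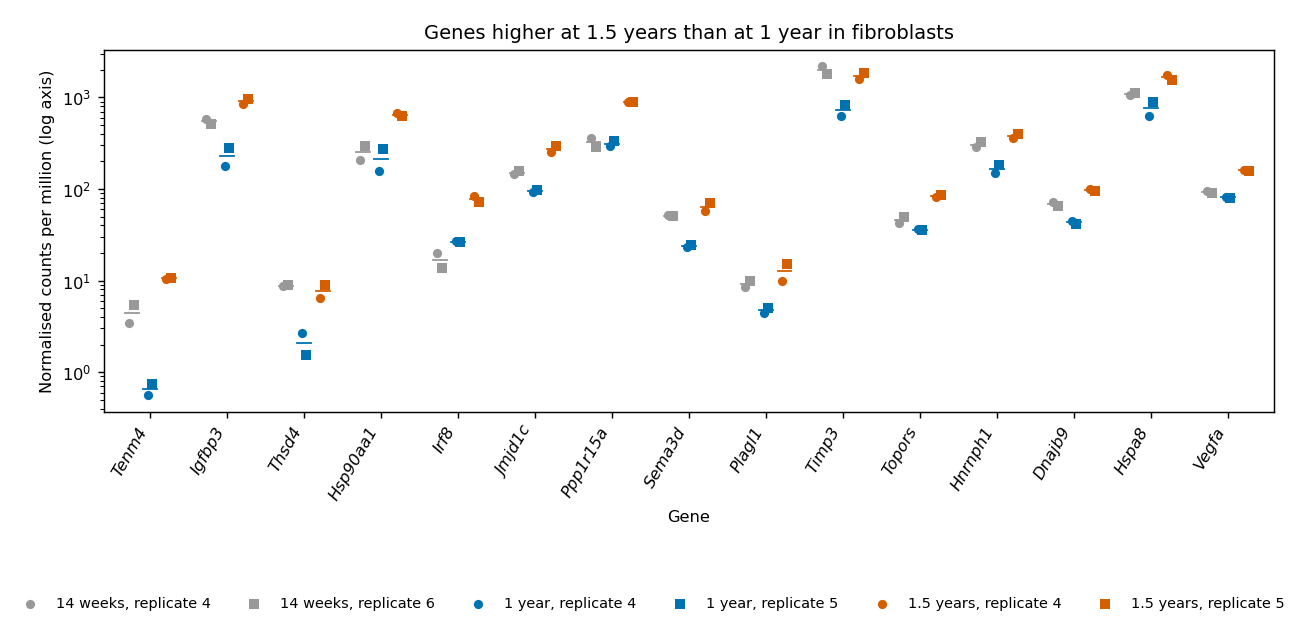
Normalised CPM (vertical axis, log scale) of 15 of the 16 genes higher at 1.5 years (Cd163, with 0 counts in 1 library of 1 year, is left out), in single fibroblast libraries of 14 weeks (grey), 1 year (blue) and 1.5 years (orange), with short lines at the mean of 2. Both orange points lie above both blue points in each of the 15 genes, from 1.98-fold (Vegfa) to 16.3-fold (Tenm4).

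Macrophage RNA was higher at 1.5 years in both libraries. The 13 markers summed to 29.5 and 28 CPM at 1 year and to 124 and 97.9 CPM at 1.5 years, with 52.8 and 71.4 CPM at 14 weeks. All 13 log2 fold changes were positive (median 2.10), 0 passed the adjusted threshold, 10 had an unadjusted p under 0.05 (of all tested genes, 3.35%) and 11 did not overlap (of all tested genes, 19.9%). Lyz2, lysozyme, had 6.47 and 3.95 CPM at 1 year and 30.8 and 29.6 CPM at 1.5 years (log2 fold change 2.53, adjusted p = 0.105), and Cd68, a lysosomal protein of macrophages, had 5.54 and 7.66 CPM at 1 year and 17.8 and 16.1 CPM at 1.5 years (log2 fold change 1.36, adjusted p = 0.219). Of the 13, Itgam was at 0 in replicate 5 of both ages, and Fcgr1 in replicate 5 of 1.5 years. Cd163 and Irf8, both called, are also expressed by macrophages, and the part of macrophage RNA in their levels was not tested.

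Lymphocyte and pan-leukocyte markers were low, 11 tested with 0 called and all 11 estimates positive (median 1.99, 0.00 without replicate 5 of 1.5 years). Their sum was 8 and 8.11 CPM at 1 year, then 16.3 CPM in replicate 4 and 46.9 CPM in replicate 5 of 1.5 years. Ptprc, the pan-leukocyte antigen CD45, had 2.72 and 1.71 CPM at 1 year and 4.34 and 13.3 CPM at 1.5 years (log2 fold change 1.99, adjusted p = 0.936). The 12 cardiomyocyte markers summed to 397 and 455 CPM at 1 year and 513 and 569 CPM at 1.5 years, 0 called. All 12 log2 fold changes were positive (median 1.43), and 6 had an unadjusted p under 0.05 (of all tested genes, 3.35%). In 2 the 1.5-year libraries lay above without overlap (of all tested genes, 19.9%). The median was -0.05 without replicate 5 and 2.33 without replicate 4 of 1.5 years. Most of the summed level was Atp2a2, which other cells express too, at 376 and 402 CPM at 1 year and 478 and 388 CPM at 1.5 years. Myh6, the cardiac myosin heavy chain, had 3.89 and 11.2 CPM at 1 year and 3.19 and 38.7 CPM at 1.5 years, so that replicate 5 of 1.5 years stood above the other libraries. Hemoglobin and other red cell genes, 4 tested with 0 called, summed to 15.7 and 17 CPM at 1 year and 33.3 and 94.5 CPM at 1.5 years.

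Endothelial markers and the mitochondrial genome divided the 1.5-year libraries. None of 17 endothelial markers passed the threshold, and their median log2 fold change was 0.81 in the fit of all libraries, 1.59 without replicate 4 and -1.22 without replicate 5 of 1.5 years. On the log2(CPM + 2) scale the list's median stood -1.08 from the mean of 1 year in replicate 4 and 1.56 in replicate 5. Eng, a receptor of endothelial cells, had 626 and 627 CPM at 1 year and 524 and 666 CPM at 1.5 years. Tek, another, had 223 and 194 CPM at 1 year and 172 and 196 CPM at 1.5 years, and neither showed the spread of Pecam1 between the libraries of 1.5 years. Whole hearts of 1 year had less of both (Eng 228, 207 and 178 CPM, Tek 45.1, 44.8 and 37.2 CPM) but more Pecam1 (133, 129 and 183 CPM). Eng and Tek thus do not mark endothelial RNA alone in these libraries. For the 26 tested genes of the mitochondrial genome, 0 passed the threshold (median 1.63, 2.23 without replicate 4 and 0.38 without replicate 5). The gene mt-Co1, a subunit of cytochrome oxidase, had 6766 and 6614 CPM at 1 year and 8490 and 28648 CPM at 1.5 years. The 75 tested nuclear genes of the respiratory chain had a median of -0.05 and 0 calls, with Atp5b at 369 and 351 CPM at 1 year and 371 and 357 CPM at 1.5 years.

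The fibrillar collagen share was lower in both 1.5-year libraries than in those of 1 year. It was 1.6% in replicate 4, the lowest in endothelial RNA, and 0.973% in replicate 5, the highest in endothelial RNA. Against the mean of 1 year, the list's median on the log2(CPM + 2) scale was -0.41 in replicate 4 and -0.74 in replicate 5, and that of the folding and cross-linking list -0.26 and -0.63. The 1-year libraries differed by -0.35 and -0.18 (replicate 5 minus replicate 4) on the same scale and lists. The sorting marker Pdgfra had a log2 change of -0.11 (SE 0.14, adjusted p = 0.981), with both libraries of 1.5 years below both of 1 year. The median of the fibroblast identity list stood at -0.01 in replicate 4 and -0.31 in replicate 5, against the mean of 1 year on the same scale. The part of endothelial and mitochondrial RNA in the collagen values was not tested. With mitochondrial genes removed from the total, fibrillar collagens took 3.54% and 2.65% at 1 year and 1.64% and 1.06% at 1.5 years.

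**Figure D4:**
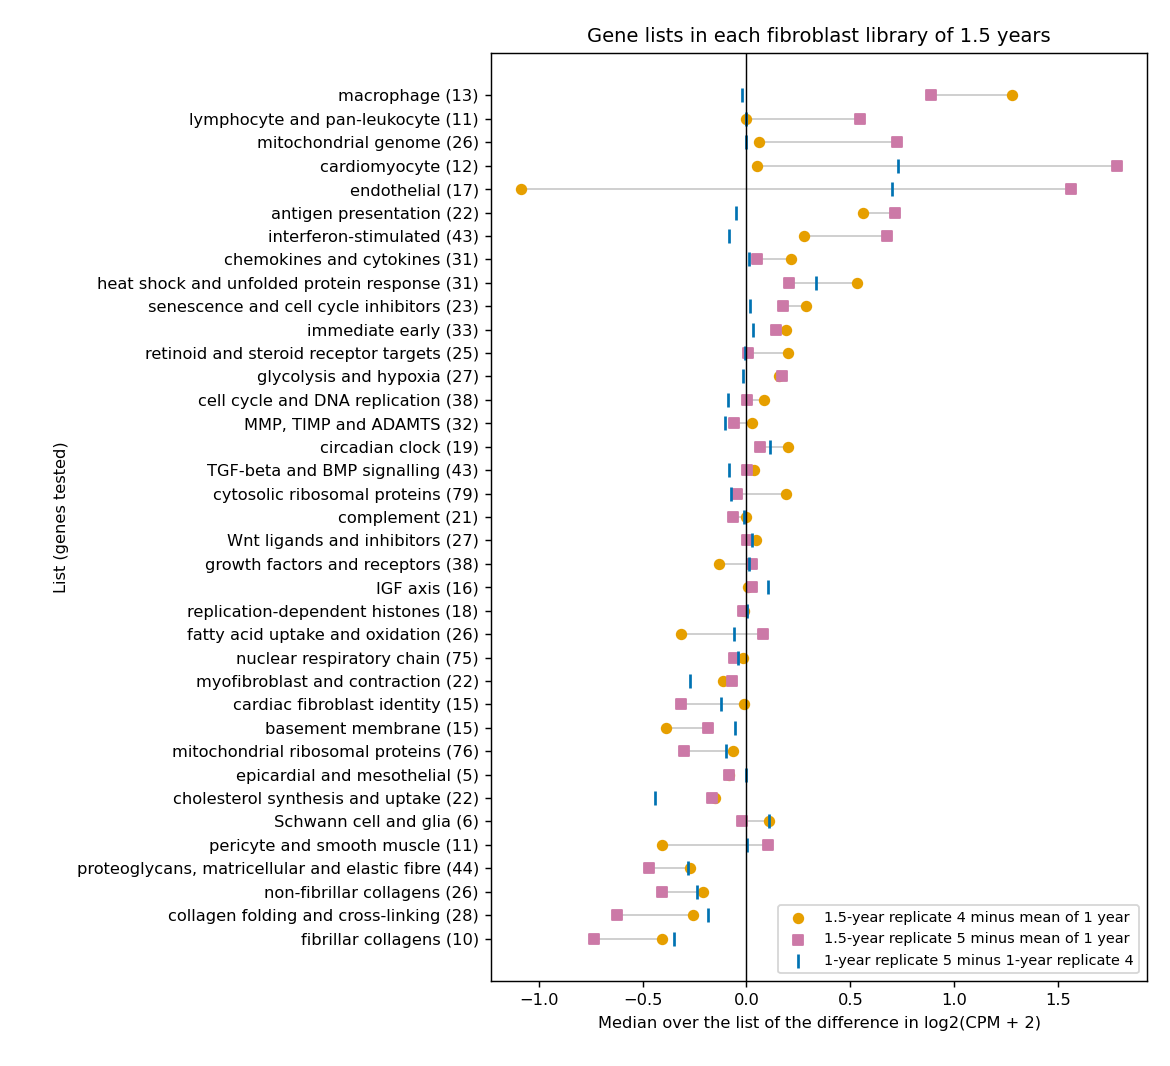
Median over each gene list (rows, with the number of genes tested) of the difference in log2(CPM + 2): replicate 4 (orange circles) and replicate 5 (pink squares) of 1.5 years minus the mean of 1 year, and replicate 5 minus replicate 4 of 1 year (blue ticks). Endothelial markers stand at -1.08 and 1.56 in the libraries of 1.5 years, while fibrillar collagens stand at -0.41 and -0.74.

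Proliferation genes gave 0 calls. Of 38 tested genes of the cell cycle and DNA replication, 23 had a positive log2 fold change (median 0.13, -0.04 without replicate 5 of 1 year). Mki67, which encodes the proliferation antigen Ki67, lay at 2.96 and 1.39 CPM at 1 year and 4.34 and 3.83 CPM at 1.5 years (log2 fold change 0.90, SE 0.46, adjusted p = 0.77), without overlap and with low levels in all 4 libraries. Among 23 tested senescence genes and cell cycle inhibitors, Igfbp3 was the 1 call, and the median was 0.27 (0.12 without replicate 4 and 0.43 without replicate 5 of 1 year).

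Antigen presentation and interferon-stimulated genes had positive medians and 0 calls. Of 22 antigen presentation genes, 21 were positive (median 0.77), 8 had an unadjusted p under 0.05 (of all tested genes, 3.35%) and 14 lay above without overlap (of all tested genes, 19.9%). B2m, the light chain of class I molecules, had 1279 and 1284 CPM at 1 year and 2112 and 2056 CPM at 1.5 years (log2 fold change 0.70, adjusted p = 0.19). Of 43 interferon-stimulated genes, 35 were positive (of all 17714 tested genes, 8724), and 8 had an unadjusted p under 0.05 in that direction (of all, 3.35%). In 22 the 1.5-year libraries lay above without overlap (of all, 19.9%) and in 1 below (21.3%). The list's median was 0.49, with 0.28 without replicate 5 and 0.74 without replicate 4 of 1.5 years. Irf1, a transcription factor of that response, had 199.7 and 227 CPM at 1 year and 516 and 663 CPM at 1.5 years (log2 fold change 1.47, adjusted p = 0.4). Macrophage markers, given above, were also higher at 1.5 years, with sums of 124 CPM in replicate 4 and 97.9 CPM in replicate 5. In the same 2 libraries antigen presentation genes summed to 6260 and 6033 CPM and interferon-stimulated genes to 2193 and 2710 CPM. The part of macrophage RNA in these lists was not tested.

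Whole hearts of the same ages, 3 libraries each, were tested for the same change. Heart RNA includes that of fibroblasts, and a gene that misses the threshold in hearts is not thereby shown to be unshared. There 143 genes off X and Y were higher and 316 lower at 1.5 years (2.69% of 17056 tested). Of the 38 genes called in fibroblasts, all were tested in hearts and 1 passed there, Vegfa, with the opposite direction. The difference between the tissues' changes was tested in 1 fit over all 27 libraries, taken as independent. The study describes fibroblasts and heart tissue as taken from the same hearts, but no label ties a heart library to a fibroblast library of these ages, so a shared animal could not be entered in the fit. In that fit, 66 genes off X and Y passed (0.34% of 19384), 35 with a change more positive in fibroblasts and 31 with one more negative. This count too rested on single libraries: it was 11 without replicate 5 and 187 without replicate 4 of fibroblasts of 1.5 years, 7 without replicate 4 and 32 without replicate 5 of fibroblasts of 1 year. Of the 38 fibroblast calls, 9 were among the 66, 5 lower and 4 higher.

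Collagen genes were among those whose changes differed. Col1a1 in hearts had 80.6, 73.9 and 70.4 CPM at 1 year and 127, 141 and 121 CPM at 1.5 years, a log2 change of 0.79 (SE 0.16, adjusted p = 0.0212), and fibroblasts minus hearts gave -2.23 (SE 0.32, adjusted p = 0.00295). Col3a1 in hearts had 149, 158 and 124 CPM and then 249, 255 and 179.8 CPM, a log2 change of 0.67 (SE 0.21, adjusted p = 0.0942), and the tissues differed by -2.32 (SE 0.39, adjusted p = 0.0158). For Col1a2 the heart's log2 fold change was 0.26 (SE 0.19, adjusted p = 0.452) and the difference -1.46 (SE 0.31, adjusted p = 0.0436). Sparc had 0.22 (SE 0.14, adjusted p = 0.377) in hearts and a difference of -1.63 (SE 0.27, adjusted p = 0.0158). In these 4 genes the fibroblast estimates lay below 0 while the heart estimates lay above 0, and Col1a1 alone of them passed the test in hearts.

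Other genes differed between tissues as well. Fhl2 in hearts lay at 1848, 2054 and 1453 CPM at 1 year and 2346, 2608 and 2700 CPM at 1.5 years, a log2 change of 0.52 (SE 0.14, adjusted p = 0.0532), and the difference was -3.15 (SE 0.37, adjusted p = 0.000305), the smallest adjusted p of the 66. Prg4 differed by -3.08 (SE 0.55, adjusted p = 0.017). Higher in fibroblasts and lower in hearts were the estimates of Timp3, with a difference of 1.97 (SE 0.36, adjusted p = 0.0181), Hnrnph1, with 1.78 (SE 0.38, adjusted p = 0.0436), and Vegfa, with 2.01 (SE 0.36, adjusted p = 0.0164) and a heart log2 change of -1.10 (SE 0.26, adjusted p = 0.0373). Lox did not pass that test, with a difference of -1.67 (SE 0.50, adjusted p = 0.15). Arntl, a core clock gene, had 65.1 and 56.8 CPM at 1 year and 104 and 91.3 CPM at 1.5 years in fibroblasts and 0.511, 2.05 and 0.822 CPM and then 27.5, 34 and 21.1 CPM in hearts, a heart log2 change of 4.61 (SE 0.45, adjusted p = 0.00011) and a difference of -4.0 (SE 0.68, adjusted p = 0.0164).

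**Figure D5:**
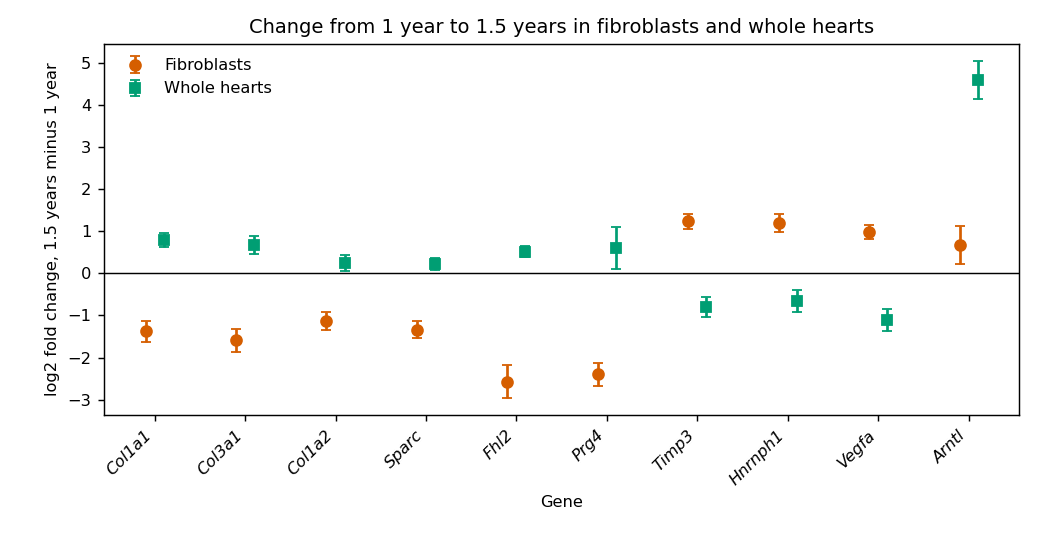
Log2 fold change from 1 year to 1.5 years (vertical axis) in fibroblasts (orange circles, 2 libraries an age) and whole hearts (green squares, 3 libraries an age) for 10 genes whose change differed between the tissues, with bars of 1 SE. Col1a1 stands at -1.37 in fibroblasts and 0.79 (SE 0.16, adjusted p = 0.0212) in hearts.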

How the data were processed

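Gene counts of 12 fibroblast and 15 whole-heart libraries were used as deposited by the authors, who mapped single-end reads to mm10 with STAR 2.5.3a and counted reads per gene with its GeneCounts mode. Which strand column was kept is not given in the sources used here. Genes were placed with GENCODE M21 (GRCm38), 252 through RefSeq synonyms and 9 through RefSeq symbols. Counts were tested with edgeR 4.0.16 in R 4.3.3 (filterByExpr by age, TMM scaling, quasi-likelihood F test, Benjamini-Hochberg adjustment over 18759 genes, 12 libraries, 5 ages, 7 residual degrees of freedom); each SE was taken from the log2 estimate and its F statistic (absolute estimate over root F). The study's methods name DESeq2, run here as an alternative (1.42.0). CPM used TMM-scaled library sizes. Tests were tried on simulated data. Python 3.11.15, scipy 1.17.1 and matplotlib 3.10.9 gave exact tests and plots. Named genes were the 12 largest rises and 12 largest falls of at least 10 CPM without overlap, called members of each list (at most 4 per direction, or the 2 highest in level where none was called), 7 genes of the study or its gates, and the 6 smallest adjusted p of the difference between tissues, ties by unadjusted p. Not every gene this rule picked is named in the text, and 2 were left out of all parts. The members and lists were chosen with earlier results of these data known. The p-values of the fibroblast fit measure the spread between these 12 libraries within all 5 ages, with 2 libraries in each age compared.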

Additional observations from a re-analysis of the deposited data

Results flagged for a closer look

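The change from 1 year to 1.5 years differed between fibroblasts and whole hearts for 66 genes, by the test of that difference over all 27 libraries. The 6 with the smallest adjusted p under the naming rule follow, each as fibroblasts minus hearts on the log2 scale. Fhl2 gave -3.15 (SE 0.37, adjusted p = 0.000305), Col1a1 -2.23 (SE 0.32, adjusted p = 0.00295), Sparc -1.63 (SE 0.27, adjusted p = 0.0158) and Col3a1 -2.32 (SE 0.39, adjusted p = 0.0158). Arntl gave -4.0 (SE 0.68, adjusted p = 0.0164).

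Aldh1a3, an enzyme of retinoic acid synthesis, gave 6.89 (SE 0.98, adjusted p = 0.00295), a fitted value that depends on the prior count because hearts of 1.5 years were near 0. It had 18.8 and 13.6 CPM at 1 year and 15 and 15.9 CPM at 1.5 years in fibroblasts (log2 fold change -0.07, adjusted p = 1). Hearts held 88, 99 and 63 counts at 1 year and 0, 1 and 1 at 1.5 years, a ratio of 139 with an exact 95% counting interval from 38.1 to 1155. The fibroblast levels of the ages overlapped.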

How the results depend on the processing

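Counts of genes higher and lower in fibroblasts were within 1.5 times of 16 and 22 with median-of-ratios size factors, library size only, at least 10 counts in each of the 4 samples, mitochondrial genome genes removed, X and Y genes removed and a 2-fold minimum. They were 180 and 153 with DESeq2, 28 and 6 with only the 4 samples, and 137 and 64 with the 6 libraries of the 3 oldest ages, the last chosen after seeing the data. With no filter on low counts, 37 were higher and 30 lower. Leaving out 1 library gave 1 to 26 higher and 0 to 40 lower genes, with the lone library of an age assumed to vary like the other ages. Beside the 38 calls, DESeq2 shared 38, the 4 samples alone 9 and the 3 oldest ages 35. The difference between tissues gave 130 genes with at least 10 counts in each sample compared, and 7 to 187 with 1 library left out.

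Replicate numbers 4 and 5 at both ages have no link in the labels, so the samples share only a number. With a replicate block over the 12 samples 3 genes were higher and 6 lower, and with the block over the 4 samples 257 and 180. The deviations of same-numbered libraries had a Pearson correlation of 0.04 across 18759 genes, which are not independent. The cause of these shifts was not tested.

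Each of the 38 called genes kept its direction in up to 15 alternatives. For the fits with 1 library left out, the lack of overlap between the ages fixed this beforehand. Of 53 genes of the naming rule that were not called, 18 changed direction with 1 library left out, with ranges of log2 fold change over the 4 leave-outs of Eng -0.262 to 0.0877, Atp2a2 -0.00298 to 0.296, Myh6 -1.25 to 2.43, Tbx18 -0.718 to 0.062, Wt1 -0.501 to 2.32, Plin4 -0.667 to 0.767, Cdh19 -0.0216 to 0.408, Ccnd1 -0.0899 to 0.218, Cxcl1 -0.00488 to 0.493, Srebf2 -0.292 to 0.109, Cd36 -1.66 to 1.83, Per1 -0.59 to 0.173, Atp5b -0.0194 to 0.055, Atp5a1 -0.105 to 0.0778, Rplp1 -0.31 to 0.132, Mrpl4 -0.00436 to 0.273, Pecam1 -0.949 to 1.70 and Aldh1a3 -0.281 to 0.188. For Atp5a1 it was also 0.00324 with DESeq2 and 0.00316 with median-of-ratios size factors.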

Other observations

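Apart from Vegfa, the further lists held 0 called genes, and their median log2 fold changes lay close to the 0.00 of all tested genes in most. Cytosolic ribosomal proteins (79 tested) had 0.08, with Rpl4 at 863 and 853 CPM at 1 year and 1046 and 902 CPM at 1.5 years. Mitochondrial ribosomal proteins (76 tested) had -0.21. Signalling lists lay near 0: TGF-beta and BMP signalling (43 tested) at 0.09, Wnt ligands and inhibitors (27) at 0.06 and the circadian clock (19) at 0.10. Fstl1, a secreted glycoprotein, had 3592 and 2545 CPM at 1 year and 2148 and 1350 CPM at 1.5 years (log2 fold change -0.81, adjusted p = 0.306).

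Metabolic lists gave -0.29 for cholesterol synthesis and uptake (22 tested) and -0.05 for fatty acid uptake and oxidation (26). Cd36, a fatty acid transporter that endothelial cells also express, had 77.9 and 157 CPM at 1 year and 37.2 and 416 CPM at 1.5 years, with replicate 5 of 1.5 years highest and replicate 4 lowest, the order of the endothelial markers. Genes of glycolysis and hypoxia (27 tested) had 0.13 and growth factors and receptors (38) 0.06, with Vegfa the 1 call in each.

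Chemokines and cytokines (31 tested) had 0.44, and Cxcl14, a chemokine, had 863 and 997 CPM at 1 year and 442 and 604 CPM at 1.5 years (log2 fold change -0.83, adjusted p = 0.081), below 1 year without overlap. Retinoid and steroid receptor targets (25) had 0.15, myofibroblast and contraction genes (22) -0.07 and replication-dependent histones (18) -0.03. Fn1, fibronectin, had 1550 and 796 CPM at 1 year and 871 and 597 CPM at 1.5 years (log2 fold change -0.68, adjusted p = 0.661). Pericyte and smooth muscle markers (11 tested) had a median of -0.34, epicardial and mesothelial markers (5) -0.27, adipocyte markers (3) 0.57 and Schwann cell and glia markers (6) -0.33.

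The sign of several of these medians turned with 1 library left out. Without replicate 4 of 1.5 years the median was 0.08 for pericyte and smooth muscle, 0.08 for fatty acid, -0.05 for cytosolic ribosomal and -0.02 for retinoid and steroid receptor genes, and that of chemokines and cytokines was 0.06. Without replicate 5 of 1.5 years it was 0.23 for Schwann cell and glia and -0.15 for growth factor genes. Without replicate 4 of 1 year it was 0.02 for cholesterol, 0.09 for fatty acid, 0.06 for myofibroblast and -0.04 for growth factor genes. Without replicate 5 of 1 year it was 0.01 for pericyte and smooth muscle and 0.15 for Schwann cell and glia.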
